A study of Arabidopsis thaliana with 2 samples.

Results

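UDP-glycosyltransferases (UGTs) move a sugar, most often glucose, from a UDP sugar to a small acceptor molecule. In *Arabidopsis thaliana* the acceptors include auxin, cytokinin, abscisic acid and salicylic acid, as well as flavonols, hydroxycinnamates and sterols, and the added sugar usually makes the acceptor inactive, storable or more soluble. Many UGT genes are short, have few introns and stand next to close relatives in tandem arrays. The genes described here are the protein-coding genes whose RefSeq product in TAIR10.1 names a UDP-glycosyltransferase, a UDP-glucosyl transferase or a UDP-glucosyltransferase. There were 131 such genes among 27444 protein-coding genes on the 5 nuclear chromosomes, which left 27313 other protein-coding genes as the background. MBD9 has a methyl-CpG-binding domain and is found with SWR1, the remodeling complex that deposits the histone variant H2A.Z.

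Anti-FLAG ChIP-seq was performed on Col-0 seedlings at 13 days after germination (the stage label reads shoots). The tagged plants expressed MBD9-3xFLAG from the *MBD9* promoter in the *mbd9-3* mutant, and the control was untagged wild-type Col-0, so the groups differ in the transgene and in the mutation. Each group had 1 library, and the wild-type library served as the control for peak calling, so the values have no replicates and no test between groups was possible. The data are 13993 summits in 10348 peaks, each summit being 1 base with a score, the −log10 q value that the peak caller gave it, with a list median of 10.1. Read depth is unknown from this list, and intervals below are 95% Wilson intervals (Newcombe intervals for differences) that cover counting error only. Genes of a tandem array share ancestry and at times a summit, so they are not independent replicates.

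The label was checked against protein sequence. The short pattern HxGWNS (x any residue), part of the conserved signature of plant family 1 glycosyltransferases, was searched in the proteins translated from the annotated coding sequence. It was found in 87 of the 131 members and in 7 other protein-coding genes. Members without it include proteins of other kinds that carry the same product name, such as GBSS1, the granule-bound starch synthase that makes amylose, DGD1, which makes the chloroplast lipid digalactosyldiacylglycerol, ATTPS6 of the trehalose-phosphate synthase family, and the sterol glucosyltransferase SGT (UGT80A2). The label also misses some named UGT genes, among them *UGT74E2*, *UGT73C5* and *UGT79B1*, which are therefore not members. The annotation gives a systematic UGT name for 60 members. Some of these also lack the pattern, among them *UGT72E2*, *UGT75B1* and *UGT87A2*, so its absence does not place a protein outside family 1. Members had a median length of 1875 bp and a median of 2 exons, against 2080 bp and 4 exons for other protein-coding genes. Of the members 79.4% had 1 or 2 exons, against 34.8% of other genes.

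Windows of 101 bases centred on the summit are shown for 7 members whose upstream summits carry the results below, on the strand of the gene, 5′ to 3′, from TAIR10.1. They are the 3 members with the highest upstream scores, the nearer summit of *UGT73B3*, and 3 members whose summit lies close to a marked motif. At *GBSS1* and *UGT78D1* that motif is GGACC, which was chosen only after the windows had been read. Other summits lie as close to a motif and are not shown, such as that of *UGT85A4* (TGACG at 0 bp). Capitals mark matches on either strand to CACGTG, to ACGTGG, to TTGACC, to TGACG, to TGGGCC or to GGACC, so CGTCA and GGTCC are also in capitals. The windows are chr3:3555755-3555855 (+) for *UGT76B1*, chr1:7907213-7907313 (−) for *UGT85A1*, chr5:1765301-1765401 (+) for *UGT76C2*, chr4:16344906-16345006 (−) for *UGT73B3*, chr4:6017910-6018010 (+) for AT4G09500, chr1:11923844-11923944 (−) for *GBSS1* and chr1:10814054-10814154 (+) for *UGT78D1*.
UGT76B1: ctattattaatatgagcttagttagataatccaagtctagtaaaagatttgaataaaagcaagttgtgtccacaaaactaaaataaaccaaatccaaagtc
UGT85A1: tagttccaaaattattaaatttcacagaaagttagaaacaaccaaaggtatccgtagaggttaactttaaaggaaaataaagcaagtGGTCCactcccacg
UGT76C2: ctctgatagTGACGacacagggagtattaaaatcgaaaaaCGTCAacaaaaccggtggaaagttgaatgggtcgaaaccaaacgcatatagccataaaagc
UGT73B3: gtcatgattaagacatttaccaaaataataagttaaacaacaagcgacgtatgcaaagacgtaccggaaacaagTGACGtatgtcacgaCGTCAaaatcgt
AT4G09500: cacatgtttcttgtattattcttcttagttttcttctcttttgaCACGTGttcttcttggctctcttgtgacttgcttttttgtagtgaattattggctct
GBSS1: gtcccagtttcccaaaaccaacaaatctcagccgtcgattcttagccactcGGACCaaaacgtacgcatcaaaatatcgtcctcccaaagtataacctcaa
UGT78D1: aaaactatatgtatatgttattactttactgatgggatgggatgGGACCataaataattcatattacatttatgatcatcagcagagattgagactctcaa

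MBD9 summits were found at or upstream of 57 of the 131 members. *UGT76B1*, which glucosylates isoleucic acid, salicylic acid and N-hydroxypipecolic acid, had the highest upstream score of the family (55.2), followed by *UGT85A1*, which O-glucosylates trans-zeatin (46.3), and *UGT76C2*, which N-glucosylates cytokinins (33.2). Within 1 kb upstream, 34 members had a summit (26.0%, interval 19.2 to 34.1), against 17.3% of other protein-coding genes (4718 genes). In the gene, 33 members had a summit (25.2%, 18.5 to 33.3), against 13.6% of other genes. Either place was occupied at 43.5% of members (35.3 to 52.1), against 26.0% of other genes. Members were thus higher by 8.68 percentage points upstream (1.92 to 16.8), by 11.6 points in the gene (4.94 to 19.7) and by 17.5 points for either place (9.31 to 26.1). With only summits at or above the median score of the list, the differences were 3.63 points upstream, 3.19 points in the gene and 6.99 points for either place.

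Gene structure moved with this difference. Among other genes with 1 or 2 exons and a length between the 10th and 90th percentile of the members (1645 to 3102 bp), a set chosen after the data had been seen, 22.8% had an upstream summit, 23.0% a summit in the gene and 36.4% either. Members stood 3.20 points above these 2567 genes upstream (−3.74 to 11.5), 2.21 points in the gene (−4.65 to 10.4) and 7.13 points for either place (−1.27 to 15.9), all 3 intervals spanning 0. Length alone left 6.66 points upstream (−0.123 to 14.8, spanning 0) and 9.81 points in the gene (3.12 to 17.9). A count of 1 or 2 exons alone left 9.35 points upstream (2.56 to 17.5) and 10.4 points in the gene (3.72 to 18.5). What part structure has in the difference was not tested. In 2 other enzyme families that modify small molecules, cytochrome P450 genes (n = 248) had 16.9% upstream and 18.1% in the gene, and glutathione S-transferase genes (n = 56) had 19.6% and 17.9%. The members exceeded the cytochrome P450 genes by 9.02 points upstream (0.523 to 18.1) and by 7.05 points in the gene (−1.44 to 16.2).

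**Figure D1:**
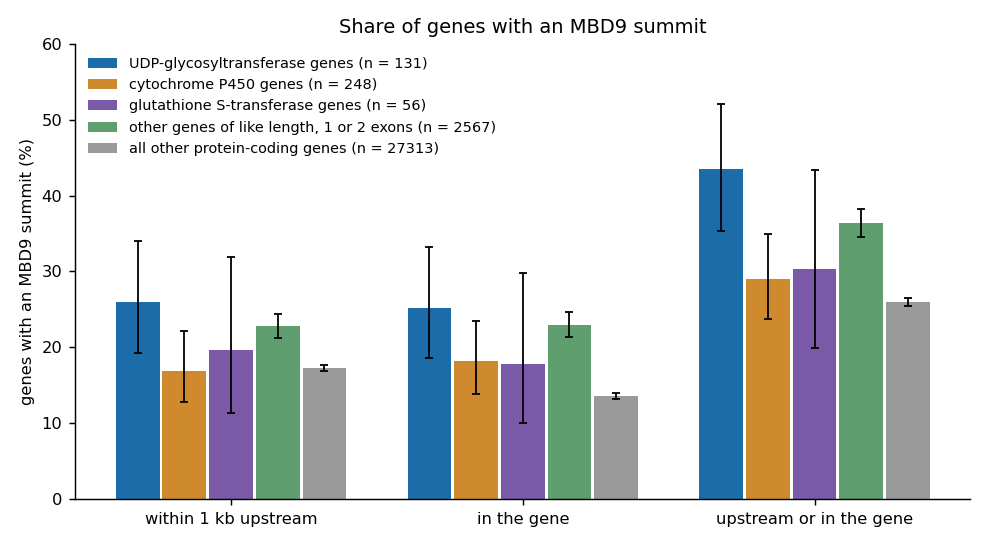
Share of genes (%) with an MBD9 summit within 1 kb upstream, in the gene, or at either place, for UDP-glycosyltransferase genes and 4 sets of other genes; bars start at 0 and error bars are 95% Wilson intervals. The members' bars (26.0%, 25.2% and 43.5%) stand above those of all other protein-coding genes and close to those of other genes of like length with 1 or 2 exons (22.8%, 23.0% and 36.4%).

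Both places were occupied at 10 members (7.63%), against 4.86% of other protein-coding genes and 9.35% of those of like length with 1 or 2 exons. An upstream summit alone was found at 24 members (18.3%, against 12.4% and 13.4%). A summit in the gene alone was found at 23 (17.6%, against 8.72% and 13.6%), and 74 members had neither. The 10 with both include *UGT85A1*, all 3 members of the *UGT73B* cluster on chromosome 4, *UGT74D1*, *UGT71B6*, *UGT71D1*, *ATTPS6*, *SGT* and AT5G49690. The members held 95 distinct summits from 71 peaks, 40 of them upstream and 58 in a gene, 3 of which counted in both places because 1 member lies upstream of another. Of the 40 upstream summits, 23 lay in or upstream of no other protein-coding gene, 9 lay inside a neighbouring gene and 9 lay also within 1 kb upstream of a neighbour. By chromosome, 8 of 15 members were occupied upstream on chromosome 4 (53.3%, 30.1 to 75.2), among them the 3 of the *UGT73B* cluster. On the other chromosomes the share was between 17.2% and 25%. On chromosome 5, 2 of 26 members had a summit in the gene (7.69%, 2.14 to 24.1). Shares of other genes by chromosome were not computed, so nothing is read from these counts.

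Upstream summits of members lay at a median of −275.5 bp from the 5′ end of the gene (quartiles −584 and −107.5 bp), against −336 bp for the 5699 summit placements upstream of other genes. Within 300 bp there were 25 of 40 (62.5%), against 47.3% for other genes, and within 100 bp 20%, against 21.3%. Neither limit was among the planned bins of 250 bp, and no interval was computed for either. By bins of 250 bp, 17 summits lay in the bin next to the gene (42.5%, 28.5 to 57.8, against 42.9% for other genes) and 11 in the next (27.5%, 16.1 to 42.8, against 20.04%). The nearest summits to a start were at −15 bp (AT1G73740, score 7.90, and AT2G36770, score 25.7), −23 bp (*UGT73B1*, 9.33), −28 bp (*GBSS1*, 13.8) and −39 bp (*UGT76C2*, 33.2).

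**Figure D2:**
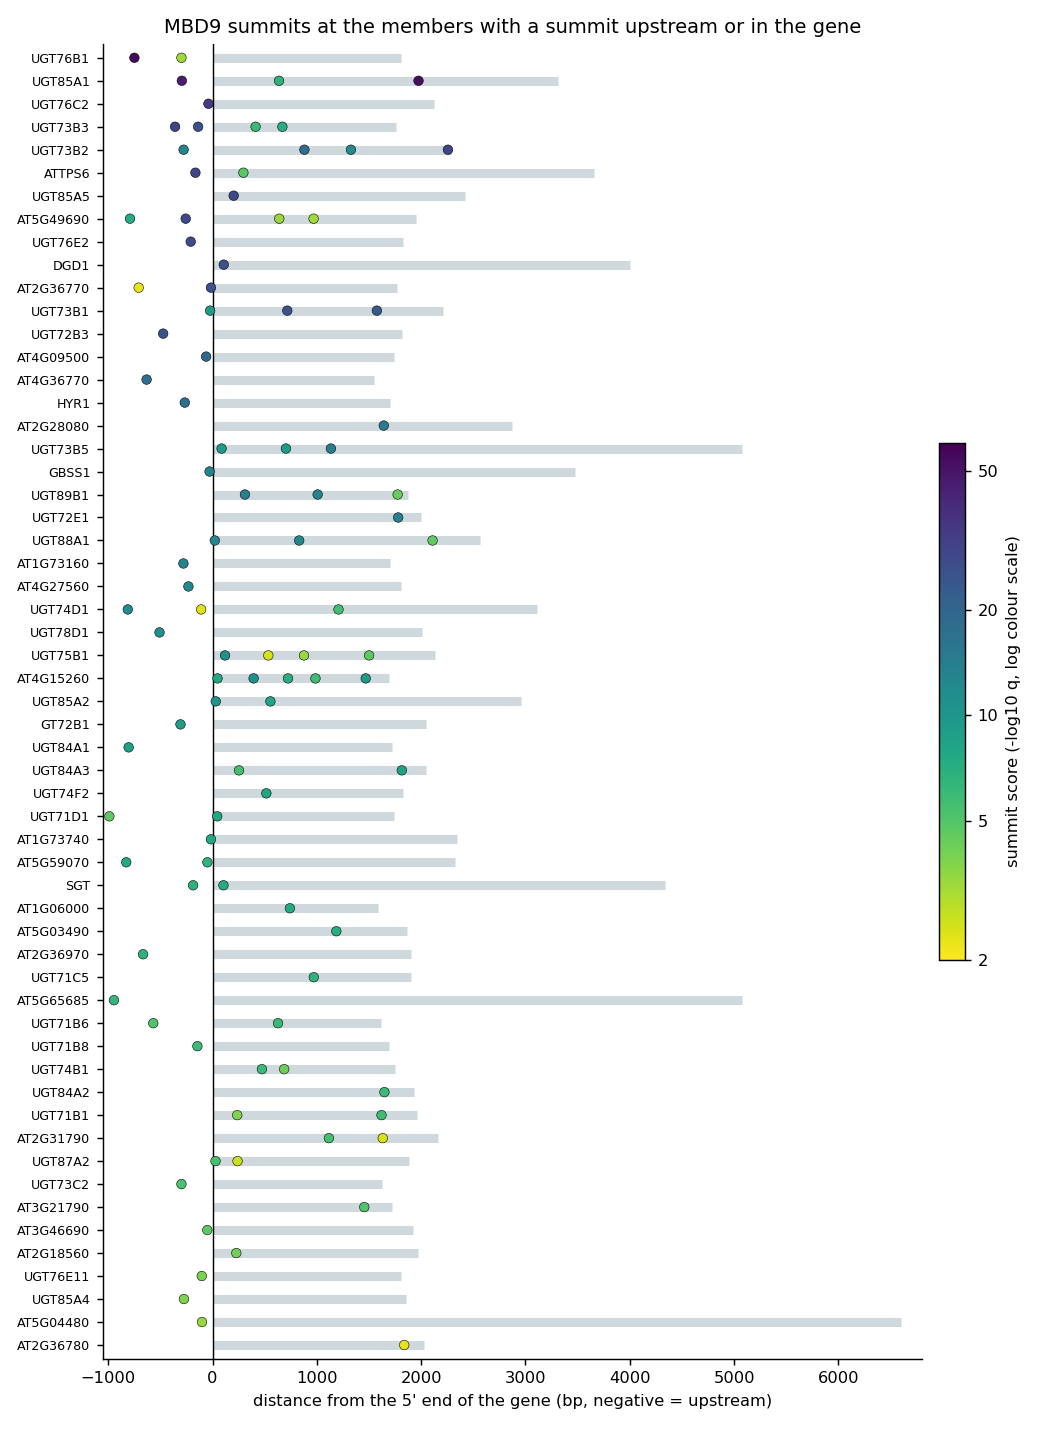
MBD9 summits at the 57 members with a summit upstream or in the gene, by distance from the 5′ end of the gene (bp, negative upstream), sorted by highest score; pale bars are the annotated genes, and points are summits coloured by score (−log10 q, log colour scale from 2 to 60). *UGT76B1*, *UGT85A1* and *UGT76C2* lead the list with upstream summits, and *UGT75B1*, AT4G15260, *UGT89B1*, *UGT88A1* and *UGT73B5* carry 3 to 5 summits inside the gene and none upstream.

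The scores of members were close to those of other genes upstream and lower in the gene, and were not tested. The highest upstream score per occupied member had a median of 11.4 (quartiles 6.47 and 23.6, range 3.41 to 55.2), against 12.6 (6.62 and 25.4) for other occupied genes. The in-gene median was 7.50 (5.80 and 13.3), against 9.94 (5.57 and 19.5) for other genes. *UGT76B1*, at 55.2, was above 93.9% of the other genes with an upstream summit, and *UGT85A1*, at 46.3, above 90.7%.

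**Figure D3:**
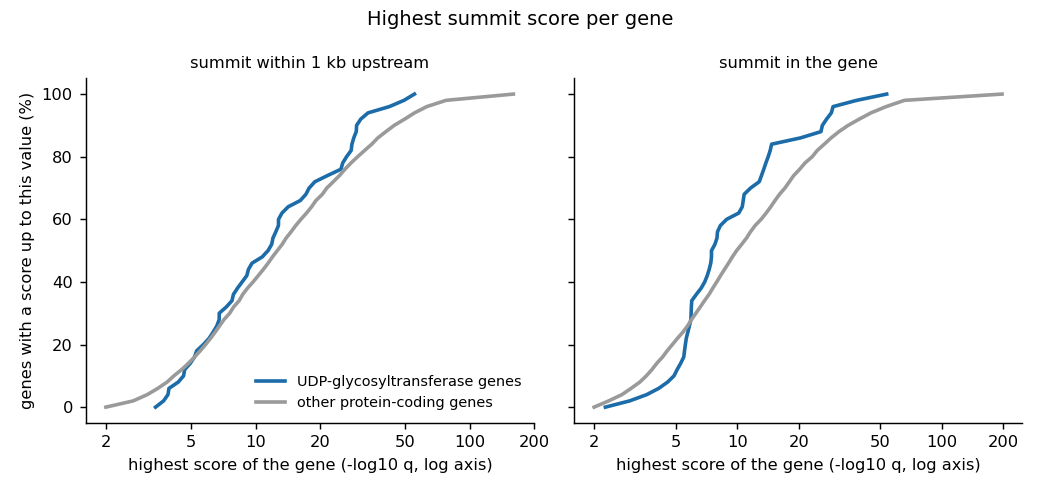
Cumulative share of occupied genes (%) by the highest summit score of the gene (−log10 q, log axis), for upstream summits (left) and summits in the gene (right), UDP-glycosyltransferase genes in blue and other protein-coding genes in grey. Upstream, the curves nearly coincide (medians 11.4 for members and 12.6 for other genes), and in the gene the members' curve lies to the left above a score of about 6 (medians 7.50 for members and 9.94 for other genes).

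The 15 members with the highest upstream score fall into several roles. Hormone conjugation is represented by *UGT76B1* (AT3G11340), with summits at −749 bp (55.2) and −298 bp (3.25), the stronger of which lies also upstream of the divergent gene AT3G11330. *UGT85A1* (AT1G22400) had a summit at −294 bp (46.3), for which the nearest other gene upstream is 4873 bp away, and 2 in the gene, one of them at 53.8 in its intron, 1975 bp from the start. This was the highest score inside any member. *UGT76C2* (AT5G05860) had a single summit at −39 bp, which is also within 1 kb upstream of the neighbour AT5G05850 on the other strand.

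Enzymes of stress responses and xenobiotic conjugation follow, with their close relatives. The pathogen-responsive *UGT73B3* (AT4G34131) had upstream summits at −359 bp (29.7) and −138 bp (25.7), and its neighbour *UGT73B2* had one at −277 bp (12.8). *UGT72B3* had 24.98 at −473 bp, at a base that lies inside AT1G01430. Its relative *UGT72B1* (listed as *GT72B1*), which glucosylates xenobiotics and monolignols, had 9.20 at −307 bp. *HYR1*, which glucosylates the compound hypostatin, had 16.8 at −266 bp, in a base also annotated as the long non-coding RNA AT3G21755.

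Enzymes outside family 1 were also among the 15. *ATTPS6* had 29.5 at −164 bp and 4.86 at 296 bp inside the gene, and *GBSS1* had 13.8 at −28 bp. The remaining members of the 15 have no role in the lists used here. They are AT5G49690 (28.3 at −257 bp and 7.44 at −791 bp), *UGT76E2* (27.9 at −209 bp), AT2G36770 (25.7 at −15 bp), AT4G09500 (19.3 at −61 bp), AT4G36770 (17.6 at −632 bp) and AT1G73160 (12.8 at −279 bp). Of these, the summits of AT4G36770 and AT1G73160 lie inside a neighbouring gene, and that of *UGT76E2* lies also upstream of AT5G59610. The stronger summit of AT5G49690 lies also upstream of AT5G49700 and the weaker one inside it, and a second summit of AT2G36770 (2.27 at −708 bp) lies inside AT2G36780. The other 19 occupied members had best upstream scores between 3.41 (AT5G04480) and 12.1 (AT4G27560).

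Of the 58 summits inside members, 36 lay in coding sequence, 13 between the gene start and the coding sequence, 6 beyond the coding sequence and 3 in an intron. Their median position was 38.3% of the gene length from the start, against 37.6% for other genes. Several members carried more than 2 summits in the gene. AT4G15260, a gene of 1692 bp, had 5 between 48 and 1469 bp from its start, with scores of 5.76 to 10.7. *UGT75B1* had 4 (2.50 to 10.9), all of them in the long non-coding RNA AT1G05562, which is annotated on the other strand over the same bases. *UGT89B1* (13.8, 13.3 and 4.43), *UGT88A1* (12.8, 12.3 and 4.61), the pathogen-responsive *UGT73B5* (9.54, 9.23 and 14.4) and *UGT73B2* had 3 each. In all, 6 members (4.58%) had 3 or more, against 2.17% of other genes, and 16 of the 33 members occupied in the gene had at least 2 (48.5%, against 37.1% of occupied other genes). The strongest single in-gene summits after *UGT85A1* and *UGT73B2* were *UGT85A5* (28.8 at 203 bp) and *DGD1* (26.2 at 108 bp), both before the coding sequence.

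By known role, 7 of the 11 hormone enzymes matched to members (15 were listed) had a summit at either place, 5 upstream and 5 in the gene, beside 43.5% of all members and 26.0% of other protein-coding genes at either place. *UGT74D1*, which glucosylates auxins, had 11.9 at −812 bp and 2.38 at −109 bp, and 5.64 in the gene. Of the abscisic acid enzymes, *UGT71B6* had 5.14 at −568 bp and 6.01 in the gene, and *UGT71C5* had 6.60 in the gene. *UGT74F2*, which makes the glucose ester of salicylic acid, had 8.02 in the gene, whereas *UGT74F1*, *UGT76C1*, *UGT84B1* and *UGT73C6* had none at either place. Pairs with like substrates and adjacent genes thus differed, as *UGT76C2* and *UGT76C1* show.

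Among the 7 phenylpropanoid enzymes 5 had a summit, 2 upstream and 3 in the gene, beside the same 43.5% of members and 26.0% of other genes. *UGT84A1* had 8.52 at −804 bp, *UGT84A3* had 8.49 and 5.56 in the gene, *UGT84A2*, which makes the glucose ester of sinapate, had 5.95 in the gene, and *UGT72E1*, a monolignol enzyme, had 13.3 in the gene. Its relatives *UGT72E2* and *UGT72E3* had none. Of 9 flavonoid enzymes listed, 4 were matched to members by name. Of these 4, only *UGT78D1*, the flavonol 3-O-rhamnosyltransferase, had a summit (11.02 at −508 bp, in the long non-coding RNA AT1G06347). The matched *UGT78D2*, *UGT78D3* and *UGT79B6* had none. *UGT74B1*, of glucosinolate synthesis, had 5.96 and 4.25 in the gene. Of the sterol enzymes, *SGT* had 6.77 at −186 bp and 7.50 in the gene, and *UGT80B1* had none. All 3 of the stress list were occupied, namely *UGT73B3*, *UGT73B5* and *UGT87A2*. The last, known for its effect on flowering time, had 5.47 and 2.65 in the gene. Of the listed enzymes, *UGT74E2*, *UGT73C5* and *UGT79B1* are named in the annotation but are not members, because the label misses them. The lists were matched by annotated name, so enzymes without a name there may stand among the members under a locus number. Such members are missing from the role counts, the flavonoid and glucosinolate lists included. With 1 to 11 genes a role, these counts do not separate one role from another.

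The genes that feed the same reactions are given as counts beside the 26.0% of other protein-coding genes with a summit at either place, and nothing is read from them. Of 10 flavonoid synthesis genes and regulators, 3 had a summit, namely *TT4* (chalcone synthase, 5.75 at −627 bp), *F3H* (flavanone 3-hydroxylase, 12.2 at −191 bp) and *MYB111*, a flavonol regulator (47.6 in the gene). Of 11 genes of UDP sugar supply, 4 had one, namely *RHM1* (UDP-rhamnose synthesis, 7.10 at −612 bp), *UGD2* (UDP-glucose dehydrogenase, 9.98 at −33 bp), *SUS1* (sucrose synthase, 6.85 in the gene) and *MUM4* (*RHM2*, 9.98 in the gene).

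Tandem clusters were taken as runs of 2 or more members with at most 1 other protein-coding gene between neighbours. There were 22 clusters with 67 members, 12 of them pairs, and 64 members stood alone. UGT genes that the label misses were not counted as members of a run. Some arrays may therefore be longer, and some single members may adjoin a relative. *UGT73C5* (AT2G36800) and *UGT74E2* (AT1G05680), for example, carry locus numbers next to *UGT73C6* (AT2G36790) and to the single member AT1G05675. Tandem members had an upstream summit in 23.9% (15.3 to 35.3) and single members in 28.1% (18.6 to 40.1), a difference of −4.24 points (−19.0 to 10.7). In the gene the shares were 26.9% for tandem members and 23.4% for single members, a difference of 3.43 points (−11.4 to 17.96). No difference between tandem and single members, as defined by the label, was therefore detectable at these numbers. The cluster spans together held 46 summits over 190310 bp, or 0.242 per kb, against 0.117 per kb over the nuclear chromosomes, gene-poor regions included. In 10 clusters any member had an upstream summit, in 4 at least 2 members had one, and in 6 no member had a summit at either place.

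The *UGT73B* cluster on chromosome 4 (chr4:16343057-16350203, 7147 bp) was the most densely occupied of the 22, and was picked out after its values were seen. All 3 members, *UGT73B3*, *UGT73B2* and *UGT73B1*, had summits both upstream and in the gene, with 9 summits in the span, or 1.26 per kb. The scores ran from 5.89 to 29.7, and the summits belonged to 3 peaks. The summit at 29.7 lies upstream of *UGT73B3* (−359 bp) and at the same time inside the end of *UGT73B2*, so it cannot be assigned to either gene from the list. In *UGT73B1* the scores were 25.6 and 23.6 in the gene and 9.33 at −23 bp. The summits at 25.6 and 9.33 are also upstream of AT4G34140, and that at 23.6 lies also inside AT4G34139. The summit of *UGT73B2* at −277 bp (12.8) is also upstream of AT4G34139. At least 98.0% of the 50-base words of each upstream region in this cluster occur once in the genome.

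The *UGT85A* cluster on chromosome 1 (16711 bp, 5 members) was occupied at 3 of its genes. *UGT85A1* carried the 2 highest scores (53.8 in the gene and 46.3 upstream), *UGT85A5* had 28.8 in the gene, and *UGT85A2* had 10.5 and 8.18 in the gene. *UGT85A7* and *UGT85A3*, members of the same array, had none. In the *UGT71B* cluster on chromosome 3 (17453 bp) all 5 members had a summit, at lower scores: *HYR1* with 16.8 upstream, *UGT71B8* with 5.97 at −145 bp, *UGT71B6* with 5.14 upstream and 6.01 in the gene, *UGT71B1* with 5.80 and 3.78 in the gene, and AT3G21790 with 5.14 in the gene. The last of these is the same base as the upstream summit of *UGT71B6*.

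The *UGT73C* cluster on chromosome 2 (11491 bp, 5 members) had its strongest summit, 25.7, at −15 bp of AT2G36770. *UGT73C2* had 5.32 at −298 bp, and a summit of 2.27 lay inside the end of AT2G36780 and at −708 bp of AT2G36770. *UGT73C1* and *UGT73C6*, which glucosylates brassinosteroids and flavonols, had none. A summit of 10.3 just outside the span lies within 1 kb upstream of *SWC2*, which encodes a subunit of the SWR1 complex and stands next to *UGT73C1*.

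The largest cluster, with the *UGT76E* genes on chromosome 3 (27089 bp, 7 members), was occupied at 2 members, *UGT76E11* (3.94 at −103 bp) and AT3G46690 (4.67 at −50 bp), both weak. The strongest summits of its span, 67.5 and 30.7, lie in 1 peak between genes, 1430 bp and 2051 bp from the nearest protein-coding gene, and count for no member. In the *UGT76C* cluster on chromosome 5 (11103 bp, 5 members) only *UGT76C2*, the first gene, had a summit, and the other 4 members and the whole span had none. The smaller *UGT76E1* and *UGT76E2* pair on the same chromosome had a summit of 27.9 upstream of *UGT76E2* alone. The *UGT78D* cluster on chromosome 5, with *UGT78D2* and *UGT78D3*, had no summit in its 6457 bp.

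**Figure D4:**
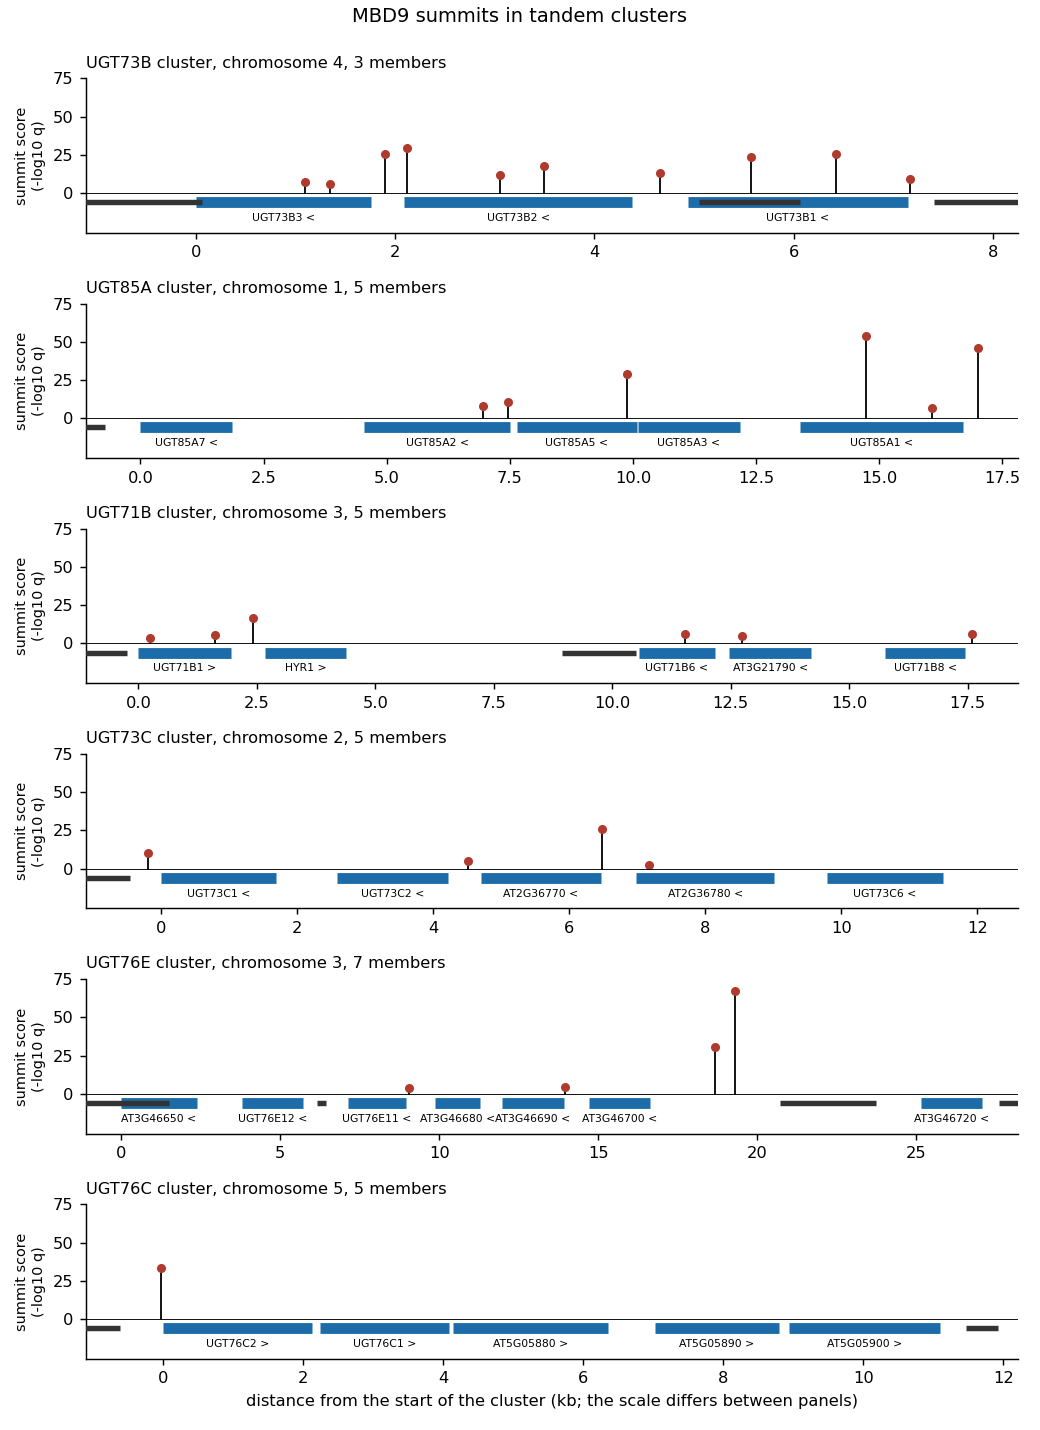
MBD9 summits in 6 tandem clusters, by distance from the start of the cluster (kb) with score (−log10 q) on the vertical axis; thick blue bars are members with the strand marked by an arrowhead, thin dark bars are other protein-coding genes, and the horizontal scale differs between panels. The *UGT73B* cluster has summits at all 3 members, the *UGT85A* cluster reaches 53.8 at *UGT85A1*, the highest summits of the *UGT76E* cluster (67.5 and 30.7) stand between genes, and the *UGT76C* cluster has 1 summit, at −39 bp of *UGT76C2*.

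Little of the sequence at the members was repeated. Only uniquely mapping reads were kept, and 2 members had an upstream region, and 3 a gene, in which under 90% of 50-base words occur once in the genome. The lowest upstream value in a cluster was 71.6%, in the pair of AT4G15260 and *UGT71B5*. Crowding differed little, with 55.7% of members and 51.5% of other genes having under 1 kb of free sequence upstream. Among these, 27.4% of members and 15.2% of other genes had an upstream summit, and with 1 kb or more free the shares were 24.1% for members and 19.4% for other genes. Members with the HxGWNS pattern had an upstream summit in 27.6% (19.3 to 37.8) and one in the gene in 29.9%, and members without it in 22.7% (12.8 to 37.0) and 15.9%.

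Sequence within 50 bp of the 40 upstream summits was compared with that at 5059 upstream summits of other genes, and with windows at the same distances in all other genes. TGACG, the core of sites bound by TGA-type bZIP factors, was within 50 bp of 8 member summits (20%, 10.5 to 34.8), against 15.4% of other upstream summits and 7.87% of same-distance windows. It was present at the windows of *UGT76C2* and *UGT73B3* shown above, more than once in each. CACGTG, the G-box, was at 3 member summits (7.50%, 2.58 to 19.9), against 11.1% and 1.962%. At AT4G09500 it lay 1 bp from the summit. ACGTGG, which overlaps the G-box, was at 2 (5.00%, against 10.8% and 2.68%), TTGACC, the W-box core with 1 added base, at 1 (2.50%, against 7.65% and 4.45%), and TGGGCC at none (0%, upper bound 8.76%, against 5.83% and 3.93%). TATAAA was at 7 (17.5%, 8.75 to 32.0, against 13.96% and 20.6%). The intervals of all 6 motifs in this paragraph include the share at other upstream summits. Mean GC content was 37.1% ± 7.08 at member upstream summits (SD, n = 40) and 37.4% ± 7.63 at other upstream summits. A match is a run of letters, and whether a factor binds it was not measured.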

How the data were processed

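ChIP-seq was analysed from 1 MBD9-3xFLAG and 1 wild-type library. The authors aligned reads to TAIR10, kept uniquely mapping reads, removed duplicates with SAMtools and called peaks with MACS2 2.1.1 against wild type, at a q value cutoff of 0.01. The deposited file gives each summit base with its score, −log10 of the q value, unpooled. Peak widths, coverage and read numbers were not used, so depth is unknown.

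Positions were made 1-based. Genes and sequence came from RefSeq TAIR10.1, within whose chromosome lengths all summits lay, although its gene starts may differ from those the authors used. Summits were counted within 1 kb upstream of the 5′ end and between the ends of each gene, with no score threshold. Motifs were searched on both strands. Uniqueness was measured with 50-base words, with a minimum of 90%. Every member with a summit could be named. The 15 highest upstream scores, the clusters of 5 or more members and the role lists were described with values. Members and lists were chosen with earlier results of these data known. With 1 library a group no test was run. Shares carry 95% Wilson intervals. Alternatives covered score, window, summits per peak, uniqueness, names, neighbouring genes and the tandem rule, and, chosen after seeing the data, the HxGWNS pattern and reference genes of like structure. Counting was tested on simulated data. Analyses used Python 3.11.15, NumPy 2.4.6, SciPy 1.17.1 and Matplotlib 3.10.9.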

Additional observations from a re-analysis of the deposited data

How the results depend on the processing

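No paired analysis was possible because there is only 1 library of each kind. Keeping only summits that score at or above the list median left 13.7% of members upstream (other protein-coding genes 10.1%), 9.92% in the gene (6.73%) and 22.1% at either place (15.1%), 11.9% of tandem and 15.6% of single members upstream, and a median highest upstream score of 22.2 (22.0). The differences from other genes were then 3.63 points upstream, 3.19 in the gene and 6.99 for either place. The cause of the smaller differences was not tested. With members limited to those with UGT names, 36.7% had a summit in the gene and 55.0% at either place, with differences of 23.1 and 29.0 points, and the cause was not tested. Against other genes of like length with 1 or 2 exons, the differences were 2.21 points in the gene and 7.13 for either place, as given above. Tandem members were higher upstream than single members with UGT names only (32.4% and 30.4%) and without summits inside other genes (22.4% and 21.9%), and lower under the other settings tried. All other alternatives stayed within the interval of the value reported.
Over all settings the upstream share ran from 13.7% to 31.7% and the in-gene share from 9.92% to 36.7%. Weak summits this library pair could not show are not counted, and an absent summit does not show absence of MBD9.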

Other observations

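GGACC (and its reverse complement GGTCC), letters noticed when the summit windows were read and so chosen after seeing them, was within 50 bp of 12 of the 40 upstream summits of members (30%, interval 18.1 to 45.4), against 18.6% of upstream summits of other genes and 5.60% of windows at the same distances in all other genes. Among summits scoring 12.8 or more, the value of the last of the 15 members described, it was at 8 of 16 member summits (50%, 28 to 72) and at 23.9% of 2293 summits of other genes. They include summits upstream of *UGT85A1*, *UGT73B3*, AT2G36770, AT4G36770, *HYR1*, *GBSS1* and *UGT73B2*, and at *GBSS1* it lay 1 bp from the summit. The interval for all 40 member summits includes the 18.6% at other upstream summits. The letters, and the score cutoff taken from the members described, both came from these same summits, so nothing is read from these counts. Letters picked this way were given no test.

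Of the 95 distinct summits, 13 lay in an annotated non-coding gene. One, at −827 bp of AT5G59070 (score 7.72), lay inside the tRNA gene AT5G59055 (chr5:23844206-23844277), and both upstream summits of AT5G49690 lay in AT5G00615, annotated as a miscellaneous RNA. The other 10 lay in long non-coding RNAs, 8 of them inside the member and 2 upstream.

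The gene model of *UGT73B5* spans 5072 bp, the whole of its cluster with *UGT73B4*, so *UGT73B4* lies within it. Its 3 in-gene summits all lie in the first 1135 bp.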
